A study of Mus musculus with 12 samples.

Results

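The stromal vascular cells (SVCs) of visceral and subcutaneous fat were compared in 6 of the 12 libraries of the study: 3 from epididymal adipose tissue (EAT) and 3 from inguinal adipose tissue (IAT). The libraries were chosen by their labels alone, and the 6 adipocyte libraries took no part in the main fit. All mice were male C57BL/6J, an inbred strain, began a high-fat diet (HFD) at 8 weeks of age and ate it for 10 weeks. As described, the groups differ by depot alone: no lean, chow-fed or female animals and no genetic change were part of these 6 libraries. A difference in handling between the groups that is not described cannot be told apart from depot. Both depots were digested with collagenase I, which frees the buoyant adipocytes from the SVCs. No label says whether a library came from 1 animal or from a pool, nor whether the replicates are separate animals. The p-values therefore rest on the spread among these libraries, which may be technical.

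White fat keeps its stem-like precursors, fibroblasts, endothelial cells, pericytes and immune cells in the stromal vascular fraction, and the lipid droplets in the adipocytes. The epididymal depot lies in the abdominal cavity and is covered by mesothelium, whereas the inguinal depot lies under the skin and surrounds a lymph node. In obesity the epididymal depot of male mice is known for gathering macrophages around dying adipocytes, more than the inguinal depot does. A bulk library averages over all these cells, so fewer cells of a type and less RNA per cell cannot be told apart in any value below.

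Each gene is a cluster of UCSC transcripts and is named here by the first transcript of its cluster. The identifiers were paired with no gene symbol in the sources used here. The cell type label was therefore not checked against marker genes, and the lists of marker and pathway genes set down for the comparison were not analysed here. Single genes are given for only 2 genes in each direction, and all other results are given for groups of genes.

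The 6 libraries held 21812035 to 26349357 expected counts, RSEM's estimates of the reads per gene. EAT and IAT overlapped in depth. Expression is given as CPM, counts scaled for library size with TMM factors, and 15318 of 32182 listed genes passed the filter on low counts. Across these genes, libraries of the same depot correlated at r of 0.989 to 0.992 and libraries of different depots at 0.947 to 0.96, as a description over genes that are not independent. The first principal component held 75.9% of the variance and set the depots apart, with EAT between -49.2 and -39.2 and IAT between 43.7 and 48.7. The spread between replicates was alike in the depots, with a median SD of log2 CPM of 0.132 in EAT and 0.131 in IAT. Replicates differed by more than counting noise, with a chi-square per degree of freedom of 12.5 to 25.5, and each was counted as 1 library. SVC and adipocyte libraries of the same depot correlated at 0.813 to 0.888, over the 15813 genes kept when all 12 libraries were fitted.

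The comparison asks which genes distinguish the SVCs of the depots. In EAT SVCs, 2620 genes were higher and 2344 were lower than in IAT SVCs, at an adjusted p below 0.05 (edgeR's quasi-likelihood test, Benjamini-Hochberg over all genes tested). These are 17.1% and 15.3% of the genes tested, and together the 4964 calls are 32.4%. Most differences were small: the median size of a called log2 difference, EAT minus IAT, was 0.63, and 3616 calls, or 72.8%, were under 2-fold. The libraries of the depots did not overlap for 4912 of the called genes, against 47.3% of all genes tested. Of the 10354 genes that did not pass, 9081 had a 95% interval that lay within a 2-fold difference either way, and the remaining ones were measured too coarsely to bound the difference that closely. The number of calls depends on the libraries fitted: with the adipocyte libraries in the same model 2314 genes passed, of which 1229 were higher and 1085 lower. The common coefficient of variation between replicates was 0.108 in the 6 SVC libraries, 0.252 in the 6 adipocyte libraries and 0.195 in the joint model.

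**Figure D1:**
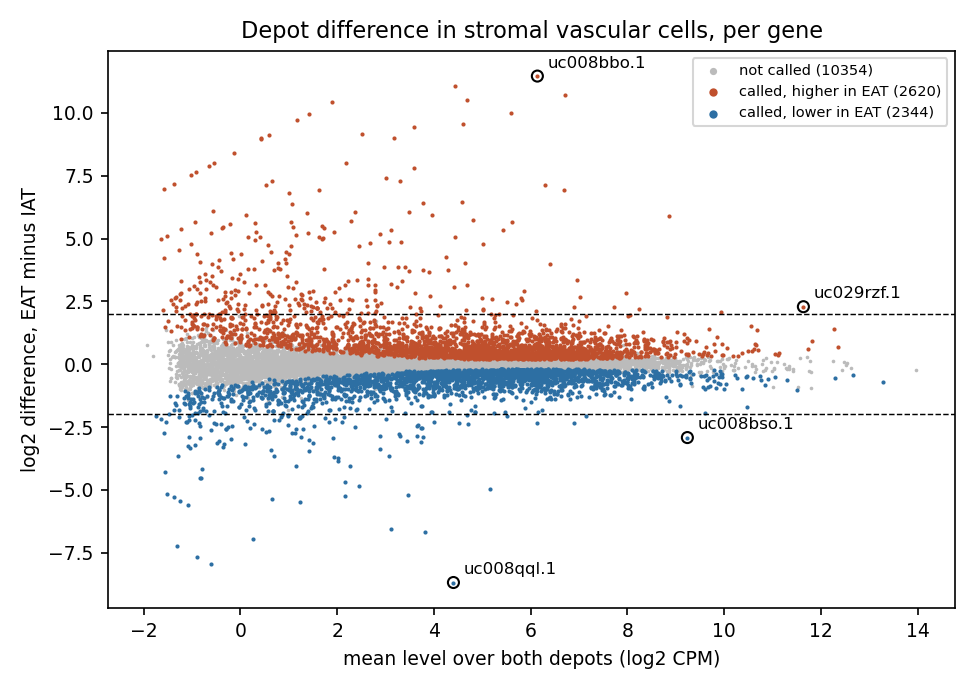
Each point is 1 of 15318 genes: the x axis is its mean level over both depots (log2 CPM), the y axis its log2 difference between EAT and IAT SVCs, and the dashed lines mark 4-fold. The cloud is even about 0 at small differences, while more genes lie far above the upper line than far below the lower one; the 4 named genes are ringed.

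The directions were even among small differences and leaned towards EAT among large ones. Under 2-fold, 1814 genes were higher and 1802 lower in EAT, so that 50.2% of the calls were higher. From 2 to 4-fold the counts were 521 and 421, or 55.3% higher. From 4 to 16-fold they were 187 and 97, or 65.8% higher, and at 16-fold or more they were 98 and 24, or 80.3% higher. At 4-fold or more, 285 genes were higher in EAT (1.86% of those tested) and 121 were lower (0.79%), so that 70.2% of these 406 genes, themselves 2.65% of those tested, were higher. Every alternative that gave these counts kept that share between 67.4% and 73.7%. The numbers themselves were 481 and 173 without the filter on low counts, and 101 and 36 on the scale of log2(TPM + 1), which shrinks the difference of low genes.

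**Figure D2:**
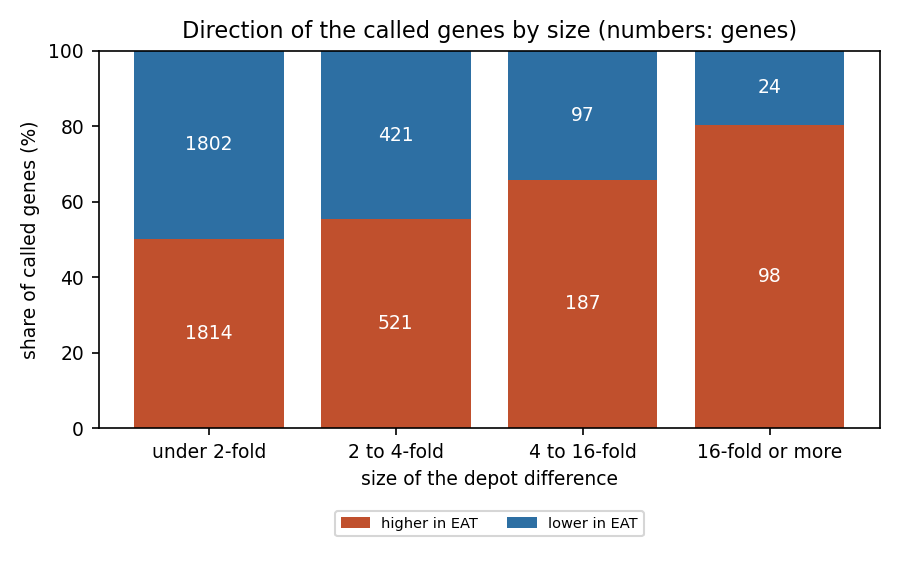
Bars show, for called genes in 4 classes of size of the depot difference (x axis), the share higher (red) and lower (blue) in EAT SVCs (y axis, percent); the numbers are genes. The share higher in EAT goes from 50.2% under 2-fold to 80.3% at 16-fold or more.

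Genes at least 4-fold apart were mostly of low abundance, with a few abundant genes carrying most of their RNA. The 285 genes higher in EAT had a median of 4.05 CPM in EAT (quartiles 1.57 and 12.1) and 0.308 CPM in IAT, where 206 of them stood below 1 CPM. Only 87 of the 285 reached 10 CPM in EAT and 16 reached 100 CPM. The 121 genes lower in EAT had a median of 3.09 CPM in IAT and 0.381 CPM in EAT; 29 of them reached 10 CPM and 4 reached 100 CPM in IAT. In all 285 and all 121 of these genes the 3 libraries of one depot lay above the 3 of the other. So they did in 4912 of the 4964 called genes, and in 47.3% of all genes tested. The genes were chosen for their difference in these same libraries, which favours such a separation.

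As a share of all counts, the 285 genes made up 1.41%, 1.15% and 1.53% of the EAT SVC libraries and 0.244%, 0.2% and 0.208% of the IAT SVC libraries. The 121 genes made up 0.0464%, 0.0331% and 0.0351% in EAT and 0.276%, 0.246% and 0.243% in IAT. These shares describe sets that were chosen for the difference, so no test was made of them. Genes at least 4-fold higher in EAT made up 1.36% ± 0.191 (SD, n = 3) of the RNA in EAT SVCs. Those at least 4-fold higher in IAT made up 0.255% ± 0.0184 in IAT SVCs. The sets differ in size, with 285 and 121 genes, so these shares are not separate evidence for the lean in number. A single gene held a large part of each share. Without it, the 284 remaining genes made up 0.836% ± 0.0939 of EAT and 0.109% ± 0.00309 of IAT libraries, and the 120 remaining genes 0.0243% ± 0.00347 and 0.148% ± 0.0129.

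**Figure D3:**
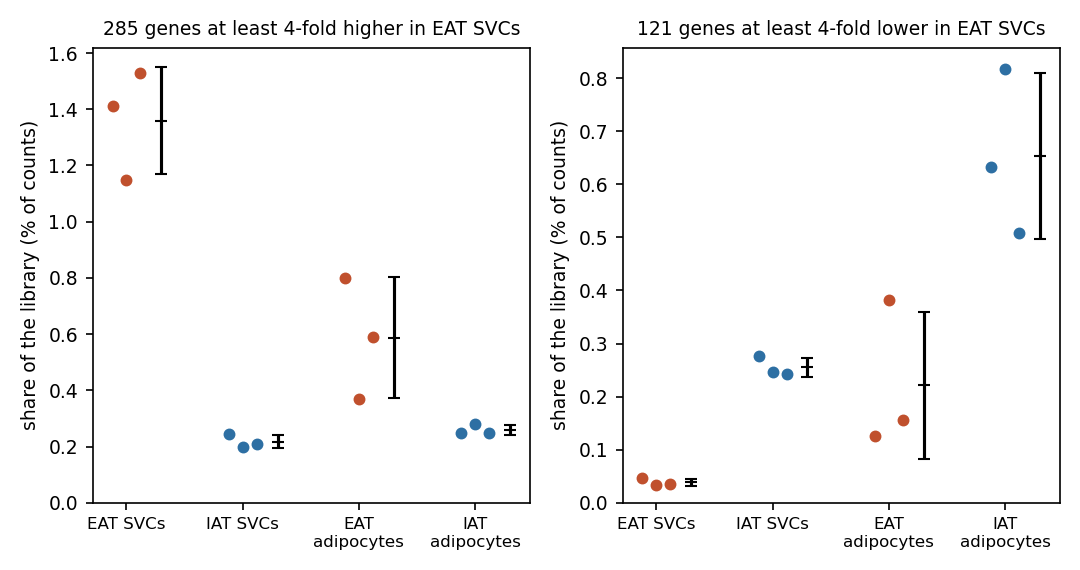
Points are single libraries, and bars beside them the mean and SD (n = 3), of the share of all counts (y axis, percent) held by genes at least 4-fold higher (left) or lower (right) in EAT SVCs. The EAT SVC libraries sit at 1.15% to 1.53% on the left, above all 9 others; on the right the IAT adipocyte libraries are the highest, at 0.508% to 0.818%.

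The gene with the most counts among the 285 was uc029rzf.1, which has 1 transcript of 3103 bases. Its level was 5359.7, 4204.3 and 6310.8 CPM in the EAT SVC libraries and 1321, 918.4 and 1002.4 CPM in the IAT ones. Every EAT library stood above every IAT library, which the rule for named genes, given below, required. The gene ranked 20 by CPM among the tested genes. Per length its level was 3603 ± 636.5 TPM (a level scaled to gene length and library, SD, n = 3) in EAT and 738.7 ± 153.2 TPM in IAT. The log2 difference was 2.29 (SE 0.19, 95% interval 1.86 to 2.72, adjusted p = 4.91e-05, edgeR). It held on average 38.5% of the counts of the 285 genes in EAT.

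On the inguinal side the corresponding gene was uc008bso.1, a cluster of 3 transcripts. It was measured at 190.3, 97.6 and 135.5 CPM in EAT SVCs and at 1140.4, 1023.5 and 1038.5 CPM in IAT SVCs. Every IAT library stood above every EAT library, again as the rule for named genes required. In TPM the levels were 135.7 ± 41.3 in EAT and 1035.5 ± 74 in IAT (SD, n = 3). The log2 difference was -2.92 (SE 0.22, 95% interval -3.41 to -2.43, adjusted p = 2.9e-05, edgeR). This gene held on average 42% of the counts of the 121 genes in IAT.

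The largest difference towards EAT among genes of at least 10 CPM was that of uc008bbo.1, a cluster of 2 transcripts. It was counted 3302, 2797 and 4106 times in the EAT SVC libraries and 1, 2 and 0 times in the IAT ones. The gene was thus plain in every epididymal library, at 126.5 to 153.7 CPM, and near the limit of detection in the inguinal ones, where 3 counts of a library correspond to 0.128 to 0.135 CPM. The ratio of the summed, scaled counts was 3210, with a counting interval at 95% of 1098 to 15569. The adjusted p was 3.41e-08 (edgeR), and the fitted log2 difference of 11.47 depends on how so few counts are handled: it was 7.13 on the log2(TPM + 1) scale.

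Towards IAT the largest difference was that of uc008qql.1, with 1 transcript. It was counted 3, 2 and 2 times in the EAT SVC libraries and 1155, 858 and 865 times in the IAT ones, which is 38.7 to 49.1 CPM. The gene was again near absent from one depot and moderately expressed in every library of the other. The ratio of the scaled counts was 435.7 towards IAT, with a counting interval of 211.2 to 1085. The fitted log2 difference was -8.69 (SE 0.22, adjusted p = 7.36e-08, edgeR) and -4.61 on the log2(TPM + 1) scale. These intervals cover counting error only.

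**Figure D4:**
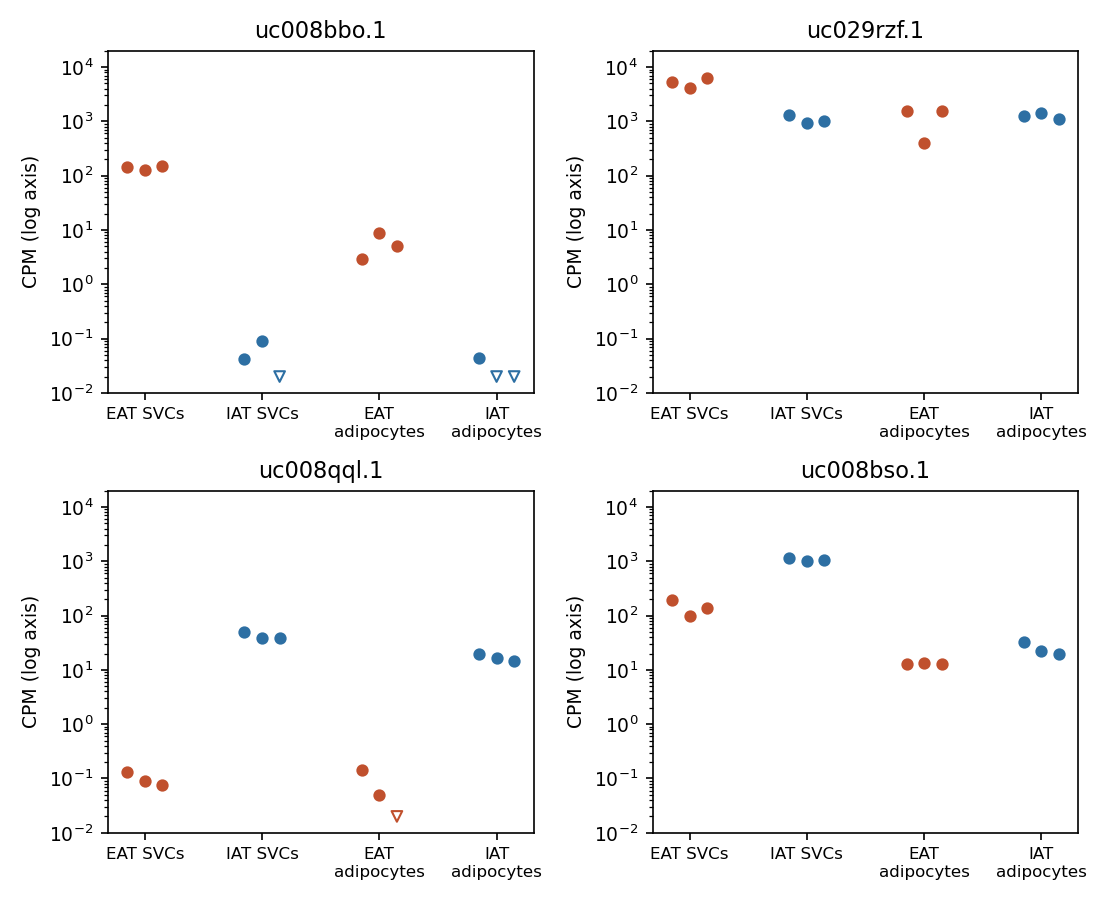
Level of the 4 named genes in each library (y axis, CPM, log axis) in the 4 groups of 3 libraries (x axis); open triangles at the bottom mark libraries with no count. The depots are apart in SVCs for all 4 genes, as the rule for named genes required. For uc029rzf.1 the adipocytes of the depots overlap through EAT adipocyte replicate 2 only.

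Some genes were seen in only 1 depot. In the SVCs, 9 genes reached 1 CPM in all 3 EAT libraries with no count in any IAT library, and 1 gene did the reverse. The 9 genes had means of 1.27 to 7.47 CPM in EAT, which is at least 28.7-fold to at least 169.2-fold above a floor of 3 counts over the IAT group (0.0441 CPM). Of the 9, 8 were also uncounted in IAT adipocytes, and all 9 had counts in the EAT adipocyte libraries, though none reached 1 CPM in all 3. Those counts were few, from 1 to 22 per gene over the 3 EAT adipocyte libraries, with means of at most 0.34 CPM. The share of all genes with such counts is not given here, so they do not show the same depot difference in adipocytes. The single inguinal gene had a mean of 1.31 CPM in IAT SVCs, 303 counts in IAT adipocytes and 5 in EAT adipocytes. When up to 3 counts in the other depot were allowed, the numbers were 25 and 2, and with a minimum of 5 CPM they were 1 and 0.

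Each EAT SVC library had counts for more genes than any IAT SVC library. At the depth of the shallowest library, 19009, 18981 and 18945 genes were expected to have a count in the EAT libraries and 18718, 18630 and 18614 in the IAT libraries. The depots did not overlap, with means of 18978 ± 31.8 and 18654 ± 56.2 (SD, n = 3), and the exact two-sided permutation test gave p = 0.1, the smallest that 3 against 3 libraries allow. Among better expressed genes the depots came closer: 13879 ± 30.7 and 13790 ± 64.4 genes had at least 1 CPM (exact permutation p = 0.3). At 10 CPM or more there were 9320 ± 82.4 and 9270 ± 52.7 (exact permutation p = 0.5). Among same-numbered libraries, taken as pairs, the EAT library had more genes in 3 of 3 pairs at equal depth, in 2 of 3 at 1 CPM and in 3 of 3 at 10 CPM. The exact two-sided sign-flip permutation test over pairs gave p = 0.25, 0.5 and 0.25, and 3 pairs cannot go below 0.25.

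The share of genes called grew with the level, while the share of large differences shrank. In the least abundant quintile of genes (0.262 to 2.73 CPM) 24.9% were called and 7.73% were called and at least 4-fold apart. In the most abundant quintile (above 70 CPM) these shares were 41.4% and 0.587%. The median size of a called log2 difference was 1.47 in the lowest quintile and 0.49 in the highest, and the median SE was 0.3 and 0.09, so a small difference among low genes was not detectable at this depth. Within the lowest quintile, 160 of the 4-fold genes were higher in EAT and 77 lower, and in the highest quintile 14 and 4. The rise of the called share with level was absent when the adipocyte libraries were fitted too, with -0.0326 percentage points between the outer quintiles in place of 16.5.

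Gene length went along with the direction. Among the shortest quintile (median 1111 bases) 517 genes were higher and 282 lower in EAT, and among the longest quintile (median 5558 bases) 493 were higher and 631 lower. The median log2 difference was 0.07 in the shortest and -0.05 in the longest quintile, both small beside the calls. By library, the median deviation of the longest minus the shortest quintile was -0.02, 0 and -0.16 log2 in EAT and 0.15, -0.01 and 0.02 in IAT; the trend lay mainly in EAT replicate 3 and IAT replicate 1. With each library's trend with length removed, 2675 genes were higher and 2364 lower, and 282 and 121 were at least 4-fold apart. Genes with 1 transcript were called at 31.2% and genes with 4 or more at 34.6%, while 4-fold differences were found in 3.59% and 1.46% of them. The first of these orders turned with all 12 libraries fitted, to -0.763 percentage points in place of 3.4.

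The genes that set SVCs apart from adipocytes were followed next. "SVC genes" and "adipocyte genes" are here the genes whose level in one fraction exceeded that in the other by 4-fold or more, averaged over both depots (adjusted p below 0.05, edgeR, all 12 libraries); 17.9% of genes met this in either direction. The classes were drawn partly from the same SVC libraries, so their counts are a description. Of 1879 SVC genes, 374 had a higher and 557 a lower level in EAT SVCs, together 49.5% against 32.4% of all genes tested. Their median log2 difference was -0.14 (quartiles -0.69 and 0.48), against 0.01 (-0.23 and 0.24) over all genes. Another 948 SVC genes did not pass. Among the called ones more were lower than higher in EAT, while at 4-fold or more 142 were higher and 64 lower. That lean towards EAT was not particular to SVC genes, as 70.2% of all 406 genes at least 4-fold apart were higher. Of the SVC genes 11% were at least 4-fold apart, against 2.65% of all genes tested.

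Among adipocyte genes, which could mark adipocyte RNA carried into the SVC fraction, 113 of 667 were higher and 115 lower in EAT SVCs, 34.2% in all, with a median of 0.04. These shares, 16.9% higher and 17.2% lower, were near the 17.1% and 15.3% of all genes tested. The near-even count depends on the bound of the class: with classes drawn at 2-fold, 412 adipocyte genes were higher and 202 lower. The size of that wider class is not given here. SVC genes were 12.3% and adipocyte genes 4.35% of all genes tested. Of the 285 genes at least 4-fold higher in EAT SVCs, 142 (49.8%) were SVC genes, 13 (4.56%) were adipocyte genes and 130 belonged to neither class. Of the 121 lower genes, 64 (52.9%) were SVC genes and 18 (14.9%) adipocyte genes. Whether adipocyte RNA has a part in those 18 was not tested.

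The same depots were compared in adipocytes. No label says whether these came from the same animals as the SVCs, so the fractions may not be independent. The adipocytes had a model of their own, which shares no library with the SVCs. In that model 16.2% of genes were higher and 12.3% lower in EAT adipocytes (28.4% in all), and EAT adipocyte replicate 2 stood apart, with an effective length weighted by abundance of 1339 bases against 1768 to 1830 in the other adipocyte libraries. Of the 2620 genes higher in EAT SVCs, 2367 could be tested in adipocytes, where 1141 (48.2%) were higher too and 138 (5.83%) lower. Of the 2344 genes lower in EAT SVCs, 2107 could be tested, and 596 (28.3%) were lower too and 90 (4.27%) higher. Over all genes tested in both fractions, 16.4% were higher and 11.8% lower in EAT adipocytes. Without EAT adipocyte replicate 2 the numbers that went the same way were 1524 higher and 1006 lower, and those that went opposite ways 294 and 199. Both kinds rose, and the share of all genes called in that fit is not given here. The rise is therefore not a result about these genes.

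The genes at least 4-fold apart in SVCs were also followed in adipocytes. Of the 121 lower genes 60 could be tested in adipocytes, and 43 (71.7%) were lower, 1 was higher and 16 did not pass; their median log2 difference there was -1.79. Of the 285 higher genes 140 could be tested, and 68 (48.6%) were higher, 14 (10%) lower and 58 did not pass, with a median of 1.1. At 16-fold or more towards EAT the numbers were 23 higher and 4 (12.5%) lower of 32. Over all genes tested in both fractions, 16.4% were higher and 11.8% lower in EAT adipocytes. The shares with the reverse in adipocytes, 10% and 12.5%, were thus near that of all genes. Whether the share that recurred differs between the 2 directions was not tested. The genes that could be tested are those with enough counts in the adipocyte libraries, and how much SVC RNA those hold was not tested.

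**Figure D5:**
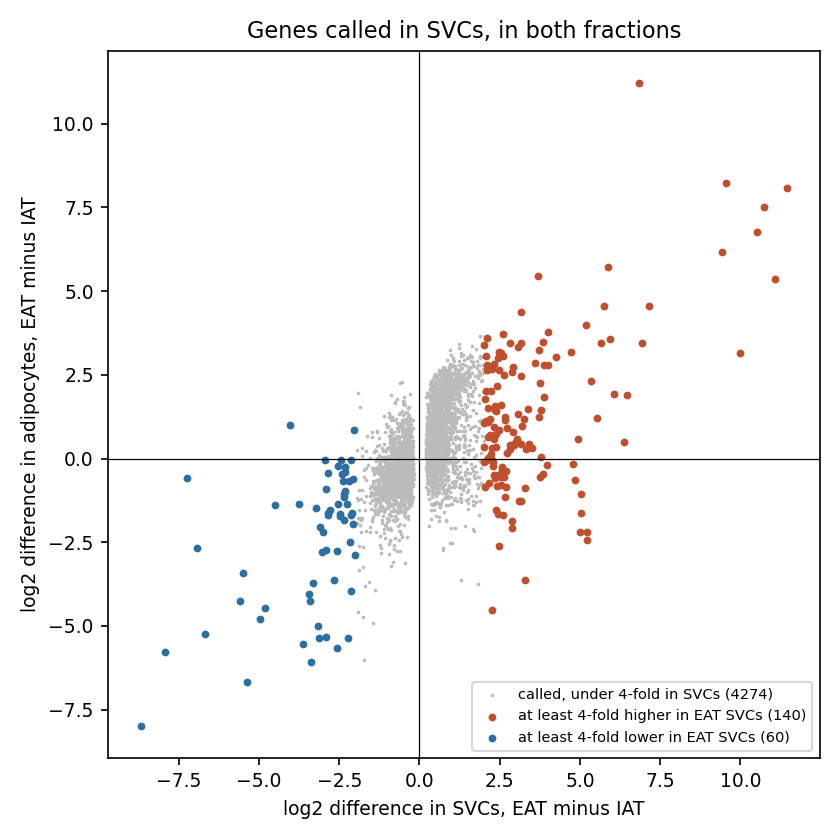
Each point is a gene called in SVCs and tested in both fractions: the x axis is its log2 difference (EAT minus IAT) in SVCs, the y axis that in adipocytes. Blue points, at least 4-fold lower in EAT SVCs, lie nearly all below 0 on the y axis; red points, at least 4-fold higher, spread above and below it.

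Of the named genes, uc008bbo.1 and uc008qql.1 had the same direction in adipocytes. The first was at 2.93, 8.87 and 4.98 CPM in EAT adipocytes, with 1 count over the 3 IAT adipocyte libraries (adjusted p = 0.0012, edgeR). The second had 4 counts over the EAT adipocyte libraries, against 19.5, 16.6 and 14.6 CPM in the IAT ones (adjusted p = 0.000814, edgeR). The test of the difference between the fractions, the depot by fraction interaction, did not pass for either (adjusted p = 0.513 and 0.678, edgeR); with an SE of 3.06 log2 for the first and 0.88 for the second, these genes do not show that the fractions act alike.

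Both abundant named genes had a larger depot difference in SVCs than in adipocytes. The gene uc029rzf.1 was at 1580.8, 405.9 and 1541.4 CPM in EAT adipocytes and at 1240.2, 1437.7 and 1101.5 CPM in IAT adipocytes. The depots overlap there only through EAT adipocyte replicate 2, at 405.9 CPM, the library that stood apart in effective length. The depot difference of uc029rzf.1 was larger in SVCs by 2.38 log2 (SE 0.54, adjusted p = 0.0103, edgeR interaction), and by 1.97 without EAT adipocyte replicate 2 (adjusted p = 0.00015). The gene uc008bso.1 was far lower in adipocytes than in SVCs, at 13, 13.5 and 13 CPM in EAT and 33.1, 22.3 and 19.4 CPM in IAT. It was lower in EAT there too (log2 difference -0.92, SE 0.22, adjusted p = 0.0201, edgeR), by less than in SVCs (interaction -2.02, SE 0.33, adjusted p = 0.0016, edgeR). Both genes were named for a large difference in SVC libraries that also enter the interaction, which favours a larger difference in SVCs.

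Among all genes the interaction passed for 18.1%. Among the genes called in SVCs it passed for 918 of 2620 higher ones (35%) and for 415 of 2344 lower ones (17.7%). Of the 918, the depot difference was more positive in SVCs for 400 and more positive in adipocytes for 518. Of the 415, it was more negative in SVCs for 307 and more negative in adipocytes for 108. Of the 285 genes at least 4-fold higher in EAT SVCs, 94 passed, and in all 94 the EAT excess was larger in SVCs. Of the 121 lower genes 31 passed, 23 with the larger difference in SVCs and 8 with the larger one in adipocytes. These genes were chosen for their difference in the same SVC libraries, which favours a larger difference there, so the directions are given as a description.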

How the data were processed

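The deposited tables hold expected counts, TPM, FPKM and gene lengths, per the file headers. Bowtie2 2.2.6, RSEM 1.2.25, limma, mm10 and GRCm38 are named, without roles, per the submitters' processing notes. Filters and the use of strand are not given in the sources used here. Overlapping, antisense and near-identical genes are therefore uncertain. The authors' expected counts were rounded to whole numbers, and the deposited TPM served for levels per length and 1 alternative. The deposited FPKM values were not used.

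The 3 EAT and 3 IAT SVC libraries were scaled with TMM, filtered with filterByExpr (tested genes held 99.9% of counts) and fitted alone, with 4 residual degrees of freedom, by edgeR 4.0.16 in R 4.3.3. Tests were two-sided, at an adjusted p below 0.05. Standard errors are the log2 difference over the square root of F. Depth makes 3 counts equal to 0.112 to 0.136 CPM in a single SVC library. Interaction and fraction classes come from a fit to all 12 libraries, the adipocyte comparison from a fit to those 6. Only the fit to the 6 SVC libraries was tested on simulated data.

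Members and lists were chosen with earlier results of these data known. The rule for named genes took, in each direction, the gene with the largest difference and the one with the highest CPM in the higher depot, among called genes at least 4-fold apart, with at least 10 CPM there and no overlap of libraries. Same-numbered EAT and IAT libraries deviated together from their group means (r of 0.191, 0.166 and 0.125 for numbers 1, 2 and 3), so the numbers may pair the libraries, as judged from the data alone; a replicate block was an alternative. Other alternatives were no filter, library size alone, DESeq2's size factors, all 12 libraries, DESeq2 1.42.0, limma-voom and limma (3.58.1) on log2(TPM + 1), leaving out each library, the 10 most counted genes or EAT adipocyte replicate 2, and other bounds for the classes and for genes seen in 1 depot. Removal of the trend with gene length and the test within pairs were chosen after seeing the data.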

Additional observations from a re-analysis of the deposited data

Results flagged for a closer look

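The depot by fraction interaction passed for 1333 of the 4964 genes called in SVCs, against 18.1% of all genes tested for it. The lower genes were near that background, with 17.7%, and the higher ones above it, with 35%. Of the higher ones that passed, 400 had the more positive depot difference in SVCs and 518 in adipocytes. The genes were chosen on SVC libraries that also enter the interaction. Without EAT adipocyte replicate 2 the count was 2295, and the share of all genes in that fit is not given here. Of the 4 named genes, uc029rzf.1 had a depot difference that was 2.38 log2 higher in SVCs than in adipocytes, and uc008bso.1 had one that was -2.02 log2 apart, being more negative in SVCs (edgeR, adjusted p = 0.0103 and 0.0016). Both were named for a large difference in the same SVC libraries, which favours a larger difference there. With 3 libraries in each group, no test for outlying values of single genes was made.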

How the results depend on the processing

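The 4 named genes kept their direction and passed in every alternative run (highest adjusted p 0.00221, for uc029rzf.1 with all 12 libraries). Calls: all 12 libraries gave 2314 (1229 higher, 1085 lower), the replicate block 5799 (3050 and 2749), and leaving out 1 SVC library 3491 to 4509. The block changed no call of a named gene. At least 4-fold, higher and lower: 481 higher without the filter, 101 and 36 on log2(TPM + 1). The share of calls that were higher (52.8%) was 51.2% with DESeq2's size factors, 55.1% on log2(TPM + 1), 50.7% without the 10 most counted genes and 51.1% to 54.2% without 1 library. The called share of the most minus the least abundant quintile (16.5 points) was -0.0326 with all 12 libraries, 22.5 with the replicate block and 12.8 to 17.8 without 1 library; that of genes with 4 or more minus 1 transcript (3.4) was -0.763 with all 12 libraries. Genes seen in EAT only and IAT only: 3 IAT only at 0.5 CPM, 1 and 0 at 5 CPM, 25 and 2 with 3 counts allowed, and 1 to 2 IAT only without 1 library (2 without EAT replicate 1 or 3). In adipocytes too: without EAT adipocyte replicate 2, 1006 lower in both, 294 higher and 199 lower in SVCs with the reverse in adipocytes, and 2295 interactions; with all 12 libraries, 695 higher in both and 47 lower in EAT SVCs with the reverse in adipocytes. Classes at 2-fold: SVC genes 610 higher and 1141 lower, adipocyte genes 412 and 202. The causes were not tested, except that fewer or other genes enter by construction where the filter, minimum or class bound changes. Gene lists were not run. Depth limits small differences among genes below about 1 CPM.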
